A study of Homo sapiens with 4 samples.

Results

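The regions described here are the knockout H3K4me3 peaks that lie just outside a control peak: they share no base with any control peak, and the nearest control peak on the same chromosome starts or ends within 5 kb. There were 2369 of them among the 23588 knockout peaks (10.04%, 95% interval 9.66 to 10.4%). They made up 25.3% (24.4 to 26.2%) of the 9357 knockout peaks that met no control peak, which were 39.7% of the list. They were chosen by the positions of the peaks in both lists, so the absence of overlap and the 5 kb limit are not results. They are called shoulder peaks below, and the control peak nearest to each is called its neighbour.

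The mark was mapped by ChIP-seq, immunoprecipitation of chromatin with sequencing of the recovered DNA, in MDA-MB-231, an established triple-negative breast cancer line, in control cells and in cells labelled ARID1A knockout. Each genotype had 1 H3K4me3 immunoprecipitate (IP) and 1 input library, and no clone, passage or culture number was given. The knockout IP held 13391724 tags, which are aligned reads, and the control IP 27748061, so the control list was drawn from the deeper IP. The peak files are in hg19 coordinates. The knockout file is headed K6, the labels give the inputs IgG as antibody, and 3 libraries carry cell line labels whose last digits differ from MDA-MB-231. With 1 IP per genotype no difference between genotypes was tested, and genotype, culture and library cannot be told apart. Intervals are 95% and cover counting error only: exact Clopper-Pearson for shares, exact Poisson for counts and densities, and binomial order statistics for medians. No molecular identifiers are mentioned in the sources used here, and copies of the same fragment would each be counted. Poisson intervals on the tags of a peak take each tag as a separate draw, and are too narrow wherever tags are copies.

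Trimethylation of histone H3 at lysine 4 is written by the MLL/SET1 (COMPASS) methyltransferases and marks the nucleosomes around the start sites of active genes. Its level is usually highest on the first nucleosomes beside a start site and declines outward, and the widest domains are known from genes that define a cell's identity. ARID1A is a DNA-binding subunit of the BAF form of the SWI/SNF remodeller, which moves and evicts nucleosomes at enhancers and promoters. The shoulder of a domain is where the mark gives way to unmarked chromatin. Genes and DNA sequence at these regions were not analysed here, because no annotation or genome of the same build was used.

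Knockout peaks thinned out with distance from the control edge. A density was taken as the number of knockout peaks divided by the number of positions that a 300 bp window could occupy at the same distance, in Mb, over the gaps between control peaks. This covered 2368 of the 2369 shoulder peaks, since 1 lay beyond the outermost control peak of its chromosome. The density was 13.1 per Mb (11.4 to 14.9, 228 peaks) at 250 bp or less from the edge. It was 10.4 (8.95 to 12.1) at 250 to 500 bp, 9.15 (8.15 to 10.2) at 500 bp to 1 kb and 8.70 (7.99 to 9.46) at 1 to 2 kb. In the outer part of the shoulder it was 7.57 (6.89 to 8.31) at 2 to 3 kb, 6.21 (5.58 to 6.90) at 3 to 4 kb and 5.88 (5.24 to 6.57) at 4 to 5 kb. The first 250 bp thus held more than 2 times as many shoulder peaks per Mb as the last kb, and their intervals did not overlap. Each pair of adjacent bins within the shoulder had overlapping intervals.

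The decline went on beyond 5 kb with no break at the limit. There were 7.91 knockout peaks per Mb (7.60 to 8.24) within 5 kb, 4.95 (4.67 to 5.25) at 5 to 10 kb, 3.59 (3.46 to 3.71) at 10 to 50 kb and 2.55 (2.40 to 2.72) at 50 to 100 kb. The density within 5 kb was 3.10 times that at 50 to 100 kb. On the other side of the edge, windows wholly inside a control peak held 25.9 knockout peaks per Mb (23.6 to 28.3) within 250 bp of the edge. The density inside was 58.7 (55.9 to 61.5) at 500 bp to 1 kb from the edge and 222 (214.6 to 229.1) at 2 to 3 kb. It was 231 at 3 to 4 kb, 198 at 4 to 5 kb and 146 at 5 to 10 kb. Only wide control peaks have positions far from an edge, and control peaks with more tags were wider. In 10 equal groups by tags the median width was 1324 bp in the weakest and 8012 bp in the strongest. Depth inside a control peak was therefore not separated from its strength. Across the edge itself lay 395 knockout peaks, of which 179 had less than 50% of their width inside. Knockout peaks of exactly 300 bp also declined, with 9.05 per Mb (7.70 to 10.6) in the first 250 bp outside, 4.25 (3.73 to 4.83) at 3 to 4 kb, 4.28 (3.74 to 4.87) at 4 to 5 kb and 1.60 (1.48 to 1.73) at 50 to 100 kb. How much of each gap can be aligned to was not analysed here.

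**Figure D1:**
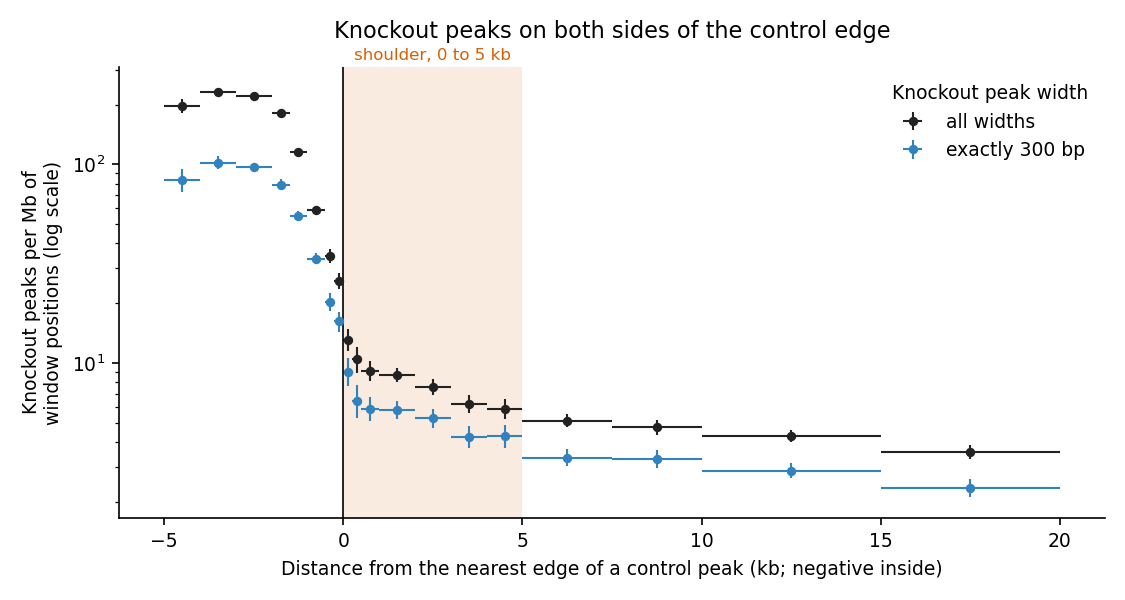
Knockout peaks per Mb of window positions (log scale) against distance from the nearest control edge in kb, negative inside control peaks; horizontal bars span each bin, vertical bars are exact Poisson 95% intervals, and the shaded band is the shoulder. Density decreases from 222 per Mb at 2 to 3 kb inside to 25.9 per Mb just inside the edge and 13.1 per Mb just outside it, and continues down past 5 kb for all widths (black). Bins deep inside draw only on wide control peaks. Peaks of exactly 300 bp (blue) run lower, with 9.05 per Mb just outside the edge, and also decrease past 5 kb.

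Within the shoulder the median distance was 1834 bp (1743 to 1956), with quartiles of 819 and 3260 bp. Of the shoulder peaks 406 (17.1%) were within 500 bp of the control edge, 710 (29.97%) within 1 kb and 1259 (53.1%) within 2 kb. The 2 flanks were used alike, with 1175 shoulder peaks on the lower-coordinate side of their neighbour and 1194 on the higher. From summit to summit the median distance was 4137 bp (quartiles 2799 and 5630 bp).

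The peaks at the limits of the rule were of many sizes. The nearest shoulder peak to a control peak lay at chr9:136372038-136372907, 3 bp from a control peak of 217 tags, and held 48 tags over 870 bp. The next were at chr1:32423077-32423376, 7 bp away with 204 tags, and at chr6:27126926-27127225, 8 bp away with 200 tags. On the other side of that limit, the knockout peaks that shared the fewest bases with a control peak shared 2 and 4 bp, both on chromosome 9 with 22 and 12 tags, and 5 bp on chromosome 2 with 394 tags. At the outer limit the farthest shoulder peaks, at 5000, 4996 and 4995 bp on chromosomes 21, 1 and 17, held 49, 1470 and 461 tags. The first knockout peaks past it, at 5003, 5004 and 5004 bp on chromosomes 9, 7 and 17, held 220, 1802 and 594 tags. Neither limit therefore separated tag-poor from tag-rich peaks among these 12.

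Shoulder peaks were narrow. Their median width was 300 bp (quartiles 300 and 455 bp), which is the fragment length set for peak calling. Exactly 300 bp was the width of 1607 of them (67.8%, 65.9 to 69.7%), against 55.0% of the whole knockout list, and each of the 1607 had its summit at the centre. A further 635 (26.8%) spanned at least 450 bp and under 500 bp. The share at exactly 300 bp was 66.3% (65.2 to 67.4%) among the distant peaks and 47.3% (46.5 to 48.2%) among the overlapping ones. At 500 bp or more there were 66 (2.79%, 2.16 to 3.53%), compared with 28.0% (27.3 to 28.8%) of the knockout peaks that overlapped a control peak and 2.60% (2.24 to 3.01%) of those more than 5 kb away. Widths of shoulder peaks were thus spread like those of the distant peaks, and the wider class was found mainly inside control peaks. The control list, called at the same fragment length, had no peak narrower than 453 bp and a median width of 2968 bp. Narrow widths were thus common in the knockout list and not particular to the shoulders. The widest shoulder peaks were 2 of 1155 bp, at chr4:49515104-49516258 with 1579 tags and a fold enrichment of 27.7 (median of the shoulder peaks 181), and at chr6:30954224-30955378 with 766 tags. The third, at chr19:52484433-52485376, spanned 944 bp with 204 tags.

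The change in width followed the edge rather than the 5 kb limit. Inside control peaks, 31.7% (30.9 to 32.6%) of knockout peaks more than 1 kb from the edge were 500 bp or wider, and 15.9% (14.6 to 17.3%) of those within 1 kb of it. Across the edge the share was 9.62% (6.90 to 13.0%). Outside it was 3.66% (2.41 to 5.32%) within 1 kb, 2.41% (1.73 to 3.27%) at 1 to 5 kb and 2.28% (1.496 to 3.33%) at 5 to 10 kb.

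In tags, the shoulder peaks stood between the overlapping and the distant knockout peaks. The median was 363 tags per shoulder peak (341 to 383; lowest 12, quartiles 164 and 646, highest 3003). It was 482 (473 to 493) for the overlapping peaks and 326.5 (317 to 339) for the distant ones. In the 300 bp class the medians lay closer together, at 302 tags (287 to 323) on the shoulders, 338 (328 to 349) in overlapping peaks and 287 (279 to 300) far away. Among wider peaks, whose widths varied, they were 560 (510 to 620.0), 714 (696 to 732) and 478 (452 to 501), farther apart than over all widths. For 300 bp peaks the shoulder and distant intervals overlapped, and for wider peaks those of all 3 classes were apart. Since peaks within a library are not replicates, these intervals give no test of a class.

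Per kb of peak width the median density was 1067 tags on the shoulders (1013 to 1117), 1153 (1130 to 1174.5) in overlapping peaks and 976.7 (946.7 to 1017) in distant ones. Over the whole knockout list it was 1094. Control peaks, from the deeper IP, had a median of 56.5 tags per kb and a highest value of 473. A score of 3100 or more, at which the caller's scores level off, was reached by 1899 shoulder peaks (80.2%, 78.5 to 81.7%), against 80.5% of the whole knockout list, 83.3% (82.7 to 83.9%) of the overlapping and 75.1% (74.0 to 76.1%) of the distant peaks. A deposited false discovery rate (FDR) of 1% or less was found for 2269 of them (95.8%, 94.9 to 96.5%), against 95.7% of the list, 96.8% (96.5 to 97.0%) of the overlapping and 93.4% (92.8 to 93.9%) of the distant peaks. The median fold enrichment over input was 181 (169 to 193) on the shoulders, 221 (216 to 226) in overlapping peaks and 170.5 (164 to 176) in distant ones. By each of these 3 measures of the caller the shoulder peaks stood between the other 2 classes, with intervals that overlapped those of the overlapping peaks in FDR and of the distant peaks in fold enrichment.

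**Figure D2:**
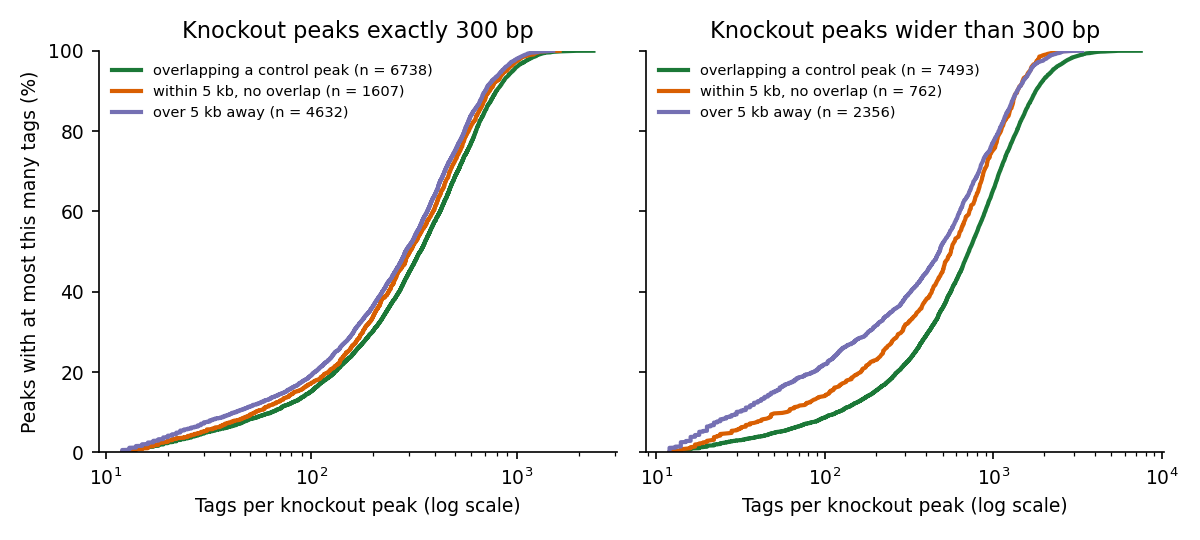
Cumulative share of knockout peaks (%) against tags per peak (log scale), for peaks of exactly 300 bp (left) and wider peaks (right), by position relative to the control peaks. The shoulder curve runs close to the other 2 curves at 300 bp (medians 302, 338 and 287 tags) and between them for wider peaks (560, 714 and 478 tags).

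The tags of shoulder peaks showed no order by distance. The median was 312.5 tags (262 to 414) at 250 bp or less, 398.5 (335 to 461) at 500 bp to 1 kb, 349 (313 to 401) at 2 to 3 kb and 317 (263 to 388) at 4 to 5 kb, with overlapping intervals. Spearman's rho between tags and distance was -0.015 over the 2369 peaks, which share 1 library and are not independent. The number of shoulder peaks per Mb changed with distance, while the tags in each did not follow it.

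Tag classes differed in width. Of the 231 shoulder peaks with 1000 tags or more (9.75%), 18.6% (13.8 to 24.2%) were exactly 300 bp wide and their median width was 463 bp. Of the 789 with 200 to under 500 tags, 78.8% (75.8 to 81.6%) were exactly 300 bp wide. At the low end, 218 shoulder peaks (9.20%, 8.07 to 10.4%) had under 50 tags, and 54.6% of these had an FDR of 1% or less, against 99.8% of those with 50 to under 200 tags. The calls above an FDR of 1% were thus almost all among the peaks under 50 tags. The lowest count was 12 tags (6 to 21), found for peaks at chr1:46706463-46706762 and at chr9:42760132-42760431 and chr9:72378002-72378486. The neighbours of these 3 had 798, 280 and 1100 control tags.

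The 10 shoulder peaks with the most tags each had more raw tags than their neighbour, as did 49.8% of all shoulder peaks. These counts come from IPs of unlike depth and peaks of unlike width, so they do not compare the strength of the mark. The 10 were picked for their tags, so their excess is largely set by the choice. Of the 10 neighbours 5 had under 100 control tags, against 26.3% of all neighbours. For the 231 shoulder peaks with 1000 tags or more the share with such a neighbour was 31.2%. The first of the 10 shoulder peaks was at chrX:149204002-149204457, with 3003 tags (2897 to 3112) in 456 bp. Its neighbour, 77 bp away, held 44 control tags (32 to 59) over 1495 bp at an FDR of 17.8%. The second, at chr3:9889585-9890244, held 2435 tags (2339 to 2534) in 660 bp. That one lay 1940 bp from a control peak of 924 tags (865 to 986), inside which were 2 knockout peaks, the stronger with 634 tags. The most tag-rich shoulder peaks thus stood beside both weak and strong control peaks. An FDR above 1% was found for 5 of the 10 neighbours, whereas 63.4% of all neighbours had 1% or less.

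The next in order, at chr2:53826730-53827184 and at chr3:186599272-186599748, held 2379 and 2288 tags beside neighbours of 78 and 49 control tags, 4370 and 1139 bp away. At chr7:24874758-24875223, 2220 tags lay 2844 bp from a control peak of 38 tags at an FDR of 40.6%, the highest FDR among these 10 neighbours. At chr1:162463550-162464021, 2164 tags lay 792 bp from a control peak of 1410 tags that also held a knockout peak of 811 tags. A knockout peak was held by 2 of the 10 neighbours. Over all 231 shoulder peaks with 1000 tags or more the neighbour held one for 38.5% (32.2 to 45.1%), close to the 38.2% (36.2 to 40.2%) over all shoulder peaks.

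The next, at chr3:45122990-45123828, held 2092 tags beside a neighbour of 88. The remaining 3 had stronger neighbours without a knockout peak of their own. They lay at chr17:1159395-1159877 with 2056 knockout and 609 control tags, at chr19:40602378-40603285 with 1992 and 1248, and at chr19:55697230-55697690 with 1950 and 268. Of the 10, 7 had a width of at least 450 bp and under 500 bp.

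**Figure D3:**
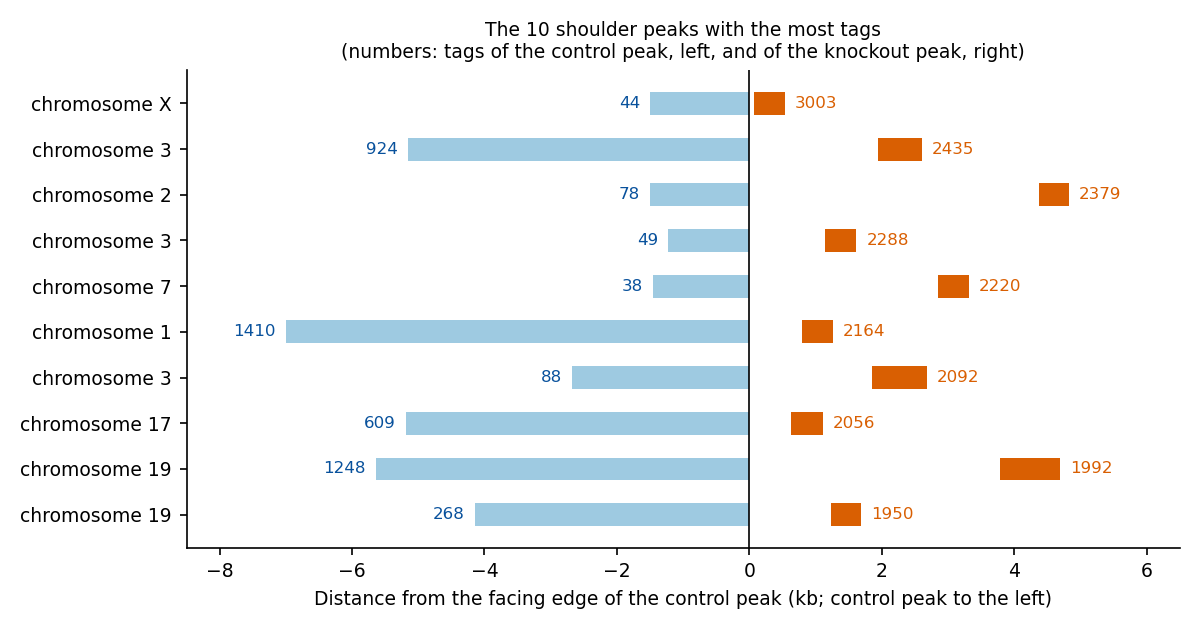
The 10 shoulder peaks with the most tags (orange, drawn to scale) and the nearest control peak (blue), placed by distance in kb from the facing control edge, with the control peak always drawn on the left. The knockout peaks hold 1950 to 3003 tags each, and the control peaks 38 to 1410.

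The neighbours were of middling strength. There were 2262 distinct ones, 6.17% of the 36677 control peaks. Their median was 279.5 control tags (250 to 316; quartiles 95 and 907), compared with 168 (165 to 172) for all control peaks and 921 (905 to 935) for control peaks that held a knockout peak. Their median width was 3624.5 bp, against 2968 bp for all control peaks. The word domain, taken as a width of 4 kb or more, describes under 50% of them: 1021 (45.1%, 43.1 to 47.2%) were that wide, against 35.1% of the control list, and 105 (4.64%) were 10 kb or wider. An FDR of 1% or less was found for 63.4% of the neighbours (61.4 to 65.4%), against 54.6% of the control list, and 596 neighbours (26.3%) had under 100 control tags.

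Stronger control peaks had more shoulder peaks. With all control peaks in 10 equal groups by tags, the weakest group (median 42 tags) had 5.78 shoulder peaks per Mb of flanking window positions (4.95 to 6.71, 173 peaks). The fifth group (median 139 tags) had 6.72 (5.82 to 7.72), and the seventh (median 361 tags) 9.30 (8.23 to 10.5). The strongest group (median 1716 tags) had 11.4 (10.2 to 12.7, 338 peaks). The share of control peaks with a shoulder peak went from 4.61% (3.95 to 5.34%) to 8.70% (7.80 to 9.66%) over the same groups. Over those groups the share of control peaks holding a knockout peak went from 2.48% to 84.2%. That span is not on a like length with the one on the shoulders. Median control width went from 1324 to 8012 bp, while flanking positions were 29.9 Mb in the weakest group and 29.7 Mb in the strongest.

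While the number of shoulder peaks per Mb followed the strength of the neighbour, their own tags did not. The median of the shoulder peaks was 387 tags beside the weakest group, 329 beside the fifth and 406.5 beside the strongest. Spearman's rho between the tags of a shoulder peak and those of its neighbour was -0.005 over 2369 peaks, as a description across regions of the same libraries. Raw knockout tags exceeded raw control tags in 1180 of the pairs (49.8%), and in 1576 (66.5%) after division by the IP totals, although the control peaks were several kb wide. Neither comparison was adjusted for tags that share strand and start, so both compare tags and not distinct fragments.

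**Figure D4:**
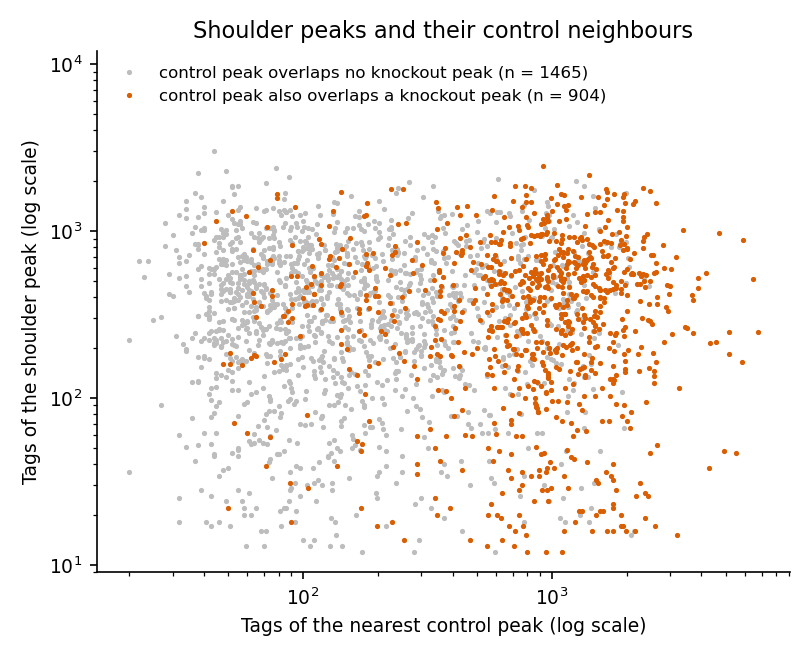
Tags of each shoulder peak against tags of its nearest control peak, both on log scales; orange points have a control peak that also overlaps a knockout peak (n = 904) and grey points one that does not (n = 1465). The orange points lie mostly to the right, at strong control peaks, while the heights of both sets cover the same span, with medians of 365.5 and 362 shoulder tags.

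Neighbours held a knockout peak more often than control peaks as a whole, and less clearly so among control peaks of like strength. Of the 2262 neighbours, 856 (37.8%, 35.8 to 39.9%) also held a knockout peak, against 28.4% of all control peaks. Within groups of like control strength the neighbours had the higher share in 9 of 10 groups, but the intervals were apart in 1. That was the eighth group (median 675 tags), where 61.8% (55.8 to 67.5%) of the neighbours and 53.7% (52.1 to 55.3%) of all control peaks held a knockout peak. The shares were 84.6% (80.2 to 88.4%) of the neighbours and 84.2% (83.0 to 85.4%) of all control peaks in the strongest group, and 78 of 260 neighbours (24.5 to 36.0%) and 29.4% (28.0 to 30.9%) of all control peaks in the seventh. In the second group the neighbours had a share of 8.52% (4.85 to 13.7%) against 4.72% (4.05 to 5.45%), and in the third 9.30% (5.41 to 14.7%) against 5.32% (4.61 to 6.09%), in both with overlapping intervals. The neighbours that held a knockout peak had a median of 942.5 control tags over 5617 bp, and the 1406 that held none had 134 tags over 2660 bp.

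**Figure D5:**
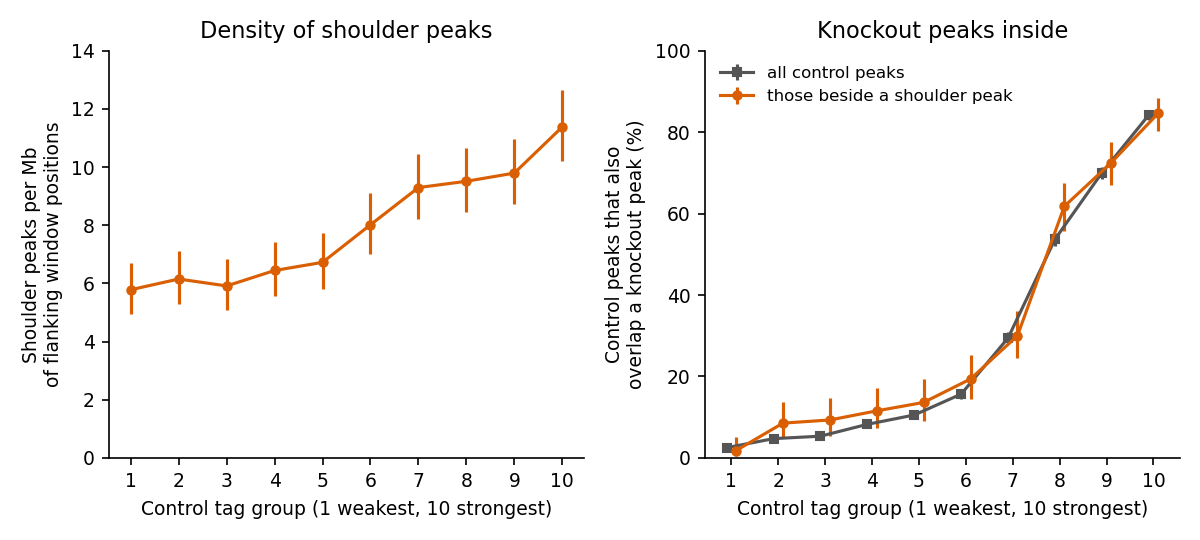
Control peaks in 10 equal groups by tags: shoulder peaks per Mb of flanking window positions with exact Poisson 95% intervals (left), and the share (%) of control peaks that also overlap a knockout peak with exact Clopper-Pearson 95% intervals (right), for all control peaks (grey) and for those beside a shoulder peak (orange). The density is 5.78 per Mb in the weakest group and 11.4 in the strongest, and the orange share lies above the grey one in 9 of 10 groups, with the intervals apart in the eighth (61.8% and 53.7%).

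Where a neighbour held knockout peaks, the shoulder peak could be compared with the strongest of them in the same library. Of 904 such shoulder peaks, 329 (36.4%, 33.3 to 39.6%) had more tags than the strongest knockout peak inside. The medians were 365.5 tags on the shoulder and 627 inside, and the ratio of shoulder to inside had a median of 0.595 (quartiles 0.191 and 1.64). The strongest of several is high by construction, and it was often wider. With 1 knockout peak inside, the shoulder peak had more tags in 266 of 619 cases (43.0%). With both peaks exactly 300 bp wide it had more in 129 of 270 (47.8%), where the medians were 349.5 and 388.5 tags. The median distance between the 2 knockout peaks was 4596 bp.

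The 5 strongest control neighbours all held knockout peaks as well, as did 84.2% of all control peaks in the strongest of the 10 groups. The first, on chromosome 8, spanned 28910 bp with 6763 control tags and held 7 knockout peaks, and its shoulder peak, 972 bp away, held 248 tags. The control peak at chr11:64608977-64650064, with 6427 tags, had a shoulder peak of 512 tags (469 to 558) 2006 bp away and 2 knockout peaks inside, the stronger with 656 tags. The one at chr17:27036173-27057441, with 5865 tags, had one of 884 tags 1694 bp away, against 2671 for the strongest of 3 inside. Another, at chr17:74717933-74738290 with 5841 tags, had one of 163 tags against 1042 inside, and that at chr20:47882177-47904979 with 5518 tags, one of 47 against 1718. In these 5 the shoulder peak had fewer tags than the strongest knockout peak inside.

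Neighbours showed little lean toward their shoulder peak. The control summit lay nearer to the facing edge than to the far edge for 1223 of the 2369 shoulder peaks (51.6%, 49.6 to 53.7%), where a summit placed without regard to side would give 50%. It lay in the 25% of the width next to the shoulder peak for 97 (4.09%) and in the 25% at the far end for 90 (3.80%), so in both directions off-centre summits were few.

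Most shoulder peaks stood alone beside their neighbour. A single shoulder peak was assigned to 2159 control peaks, 2 to 99 and 3 to 4, and 58 control peaks had shoulder peaks on both sides. A control peak lay within 5 kb on both sides for 284 (11.99%, 10.7 to 13.4%), in gaps with a median length of 4572 bp. These had a median of 381.5 tags, against 360 for the others, and nearest control peaks with a median of 207 tags, against 294.

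Among the control peaks with 3 shoulder peaks, the one at chr3:49964881-49970124, with 908 tags and 2 knockout peaks inside, had shoulder peaks of 216, 46 and 662 tags at 3745, 146 and 2382 bp. The one at chr11:47783968-47790982 had 1994 tags and no knockout peak inside, and shoulder peaks of 487, 854 and 1686 tags at 2447, 415 and 3626 bp. The one at chr19:2395165-2396978 had 91 tags and none inside, and shoulder peaks of 848, 284 and 819 tags at 3353, 1688 and 423 bp. In the last 2 the knockout peaks surrounded the control peak without touching it.

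Other knockout peaks were closer to shoulder peaks than to distant ones. Another knockout peak lay within 5 kb of 721 shoulder peaks (30.4%, 28.6 to 32.3%), of 49.6% (48.7 to 50.4%) of the overlapping peaks and of 5.90% (5.35 to 6.47%) of the distant ones. Within 1 kb the shares were 3.21%, 27.4% and 1.06%. The distance rule brings shoulder peaks near the knockout peaks inside control peaks, so this order is partly set by the choice of regions.

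Across chromosomes 1 to 22 and X the shoulder peaks made up 8.22% (5.66 to 11.5%, chromosome 18) to 11.8% (7.83 to 16.8%, chromosome 21) of the knockout peaks, and the intervals of these 2 chromosomes overlapped. Their density differed more. Chromosome 19 had 15.5 shoulder peaks per Mb of flanking positions (13.4 to 17.97, 183 peaks), chromosome 17 had 11.3 (9.58 to 13.3) and chromosome 20 had 10.6 (8.40 to 13.3). The lowest densities were 5.10 (3.64 to 6.95) on chromosome 13 and 5.15 (4.05 to 6.44) on chromosome 4. On chromosome 19 the neighbours had a median of 686 control tags, and on chromosomes 13 and 4 of 150.5 and 128.5. Other chromosomes did not keep this order: chromosome 18 had 402 neighbour tags at 5.94 shoulder peaks per Mb (4.04 to 8.43), and chromosome 16 had 144 at 8.09 (6.40 to 10.1). The median tags of the shoulder peaks were 379, 365.5 and 270.5 on chromosomes 19, 13 and 4, and their median width was 300 bp on all 23.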

How the data were processed

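Both peak lists were deposited by the authors as MACS tables, 1 per genotype. Per the submitters' processing notes the tools were Bowtie2 2.2.4 and MACS 1.4.3 with the hg19 assembly. Per the file headers, each IP was compared with the input of its genotype at a p cutoff of 0.0001, with a fragment length of 300 bp and a tag size of 150 bp, and the larger library was scaled to the smaller. The deposited tags are whole counts of IP tags per peak, not normalized. The deposited score is -10 times log10 of the p-value, under a column name that was lost. The fold enrichment deposited by the authors is a ratio of tags to local background, and the deposited FDR is a percent. In the main results score, fold and FDR were compared only within a list. Among the alternative settings, a p cutoff of 1e-10 and a fold enrichment cutoff of 10 were each applied to both lists. Removal of duplicate tags: not given in the sources used here. Among peaks of exactly 300 bp the highest count was 1617 tags on the shoulders and 2362 in overlapping peaks. Each count exceeds the start positions in 300 bp on both strands together, so some of these tags share strand and start. Whether such tags are copies of the same fragment was not tested. All 12977 knockout peaks of exactly 300 bp had their summit at the centre. How the tags were placed within them was not tested.

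Distances run from facing edge to facing edge (1 for adjacent peaks) and equalled those of bedtools 2.31.1 for all 23588 knockout peaks. No shoulder peak had 2 equally near control peaks. Scripts used Python 3.11.15 with pandas 2.3.3, numpy 2.4.6, matplotlib 3.10.9 and scipy 1.17.1, and distances and densities were tested on simulated data. The IP libraries held 13391724 and 27748061 tags and the inputs 17890122 and 14878873. Regions named in the text are the 10 shoulder peaks with the most tags, the 3 with the fewest, the 3 widest, the 3 nearest and 3 farthest, the 3 knockout peaks just beyond each limit, the 5 with the strongest neighbours and the first 3 of the control peaks with the most shoulder peaks, on chromosomes 1 to 22 and X. The regions, measures and rules were chosen with earlier results of these data known.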

Additional observations from a re-analysis of the deposited data

How the results depend on the processing

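Of 111 alternative values of the main measures, 71 stayed within their counting interval (for the number of shoulder peaks and the density ratio, within 1.5 times) and 40 moved. Densities and the share of the knockout list were added after seeing the data. In the order number of shoulder peaks, share of the knockout list, median distance and share between 2 control peaks, a limit of 1 kb gave 710, 3.01%, 437.5 bp and 3.80%. A limit of 2 kb gave 1259, 5.34%, 869 bp and 5.88%, and one of 10 kb gave 14.9%, 3163 bp and 20.6% for the last 3. Summit-to-summit distances gave 1529, 6.48%, 3134 bp and 15.7%, with 157 neighbour tags, 28.9% of neighbours holding a knockout peak and 59.1% of control summits nearer to the facing edge. That measure favours narrow neighbours by construction. With control peaks at an FDR of 1% or less, the values were 7.65% of the list, 1985 bp, 7.70% between 2 control peaks, 679 neighbour tags, 54.3% holding and 10.04 shoulder peaks per Mb, and 1599 of the 2369 regions (67.5%) remained. With a p of 1e-10 or less in both lists they were 8.68%, 10.1% between, 505 tags, 46.4% and 8.87 per Mb. Knockout peaks wider than 300 bp gave 762 regions, 7.18%, 1700.5 bp, 560 tags, 466 bp, 24.5% holding and 2.55 per Mb. A knockout FDR of 1% or less gave 384 tags and 7.58 per Mb, and counting peaks with under 50% shared gave 10.8% and 1672 bp. Beyond these constructions the cause was not tested. The ratio of density within 5 kb to that at 50 to 100 kb, 3.10, stayed between 2.67 and 3.20. Of the 27 named shoulder peaks, 9, 14 and 15 remained under the 1 kb, 2 kb and summit settings. No paired analysis was possible because each genotype has 1 IP library. A depth of 13391724 tags is no guide to precision where tags are copies of 1 fragment, and control tags at the shoulder peaks were not analysed here.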
